A study of Mus musculus with 24 samples.

Results

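The genes described here are 39 members of the folding and translocation machinery of the endoplasmic reticulum (ER), taken as a fixed list of symbols from a table of 17811 gene identifiers. All 39 were in the table, and 37 passed the filter on low counts. They were followed along the villus of the jejunum of 4 C57BL/6 mice, all male, 10 weeks old and fed regular chow. The epithelium was detached with EDTA, and FACS on the surface markers CD73 and CD26 split its cells by height on the villus. The zone called V1 is the most bottom, V2 is bottom and V3 bottom-middle. V4 is the middle zone, V5 lies between middle and tip, and V6 is the tip. A single library of pooled cells was made per mouse and zone, which gives 24 libraries with n = 4 mice in each zone. The labels name no transgene or treatment.

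Secreted and membrane proteins enter the ER through the Sec61 channel while they are being made. Signal peptidase then removes the signal sequence, oligosaccharyltransferase attaches glycans, and chaperones and protein disulfide isomerases fold the chain. When unfolded chains build up, the sensors IRE1, ATF6 and PERK start the unfolded protein response, which raises the genes of this machinery, partly through the transcription factor XBP1. In the intestinal epithelium goblet and Paneth cells are the classical heavy secretors, while absorptive enterocytes use the same machinery for brush-border enzymes and lipoproteins.

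Library totals ran from 806541 to 2266261 unique molecular identifiers (UMIs), with a median of 1502948.5. A UMI marks the 3-prime end of a single transcript molecule. CPM here is the UMI count relative to the TMM-scaled library size, and a slope is the change of log2 expression per zone with its SE. The 39 members together took 0.638% ± 0.0692 of the UMIs in V6 and 0.985% ± 0.0531 in V1 (SD, n = 4 mice each). That share is not TMM-scaled. In TMM-scaled CPM they summed to 6991 ± 415 in V6 and 8603 ± 778 in V1. Enterocyte markers were found in every zone, with their lowest sum in V1. Their 12 genes summed to 87083 ± 13355 CPM in V6 and 17671 ± 7128 in V1. Goblet cell markers were not absent from any zone. Their 12 genes summed to 11569.9 ± 2937 CPM in V6 (range 9567 to 15827), 11807 ± 5007 in V3 and 73590.0 ± 24933 in V1 (range 48348.5 to 95863), each n = 4.

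Most members were lower toward the tip. In edgeR's quasi-likelihood test of the linear trend, 25 of the 37 tested members fell (67.6%, against 22.8% of 9328 genes tested) and 2, P4hb and Atf6, rose (5.41%, against 22.1% of all genes), at a Benjamini-Hochberg adjusted p under 0.05. The median slope was -0.097 over the members and -0.0046 over all genes. Between the ends of the series, 19 members were called lower and 2 higher in V6 than in V1, against 18.6% and 20.2% of all genes. The lower calls numbered 27 with mouse as a block (24.7% of all genes). In 26 of the 37 members V6 was below V1 in 4 of 4 mice (70.3%, against 28.4% of all genes), and in 2, P4hb and Dnajb9, it was above V1 in 4 of 4 (5.41%, against 28.1%). With mouse as a block 30 members fell (27.8% of all genes) and 2, P4hb and Atf6, rose (27.6% of all genes). Scaled by total UMIs instead, 33 members fell and 0 rose (0 at an unadjusted p under 0.05), while 3692 genes (39.6%) fell and 1225 (13.1%) rose in all, against 2128 and 2066 with TMM. Of the 25 falls, Spcs1 and Ssr1 were not called without mouse 1. Without mouse 3, Canx, Hsp90b1, Dnajb11, Sec61a1, Stt3a, Spcs1 and Ssr1 were not called, and without mouse 4, Dnajb11, Sec61a1, Stt3a, Spcs1 and Ssr1 were not. All 12 goblet cell markers fell in the same test, while 11 of 12 enterocyte markers rose. Of 8 tested Paneth cell markers 0 were called in either direction. They summed to 9400 ± 4006 CPM in V6, 22085 ± 17614 in V5, 10020 ± 7342 in V3 and 14093 ± 6299 in V1. Of 10 crypt and dividing cell markers 5 fell and the other 5 were not called, with a sum of 134 ± 9.28 CPM in V6 and 299 ± 78.7 in V1. Of 10 enteroendocrine markers 5 rose and 1 fell, with a sum of 6113 ± 1549 CPM in V6 and 2337 ± 337 in V1. The part of these cells in the members' differences was not tested. Once mouse and a goblet score (the mean log2 level of the goblet cell markers) entered the model, the members had a median slope of -0.00069 and edgeR called 0 of 37, with 2 at an unadjusted p under 0.05, both upward. That model called few genes of any kind (0.557% lower and 2.33% higher), so the count says little about the members. Zone and mouse explained 93.9% of that score, so position on the villus and goblet cell content cannot be told apart in this design. In bulk libraries, fewer cells of a type and less RNA per cell cannot be told apart either.

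**Figure D1:**
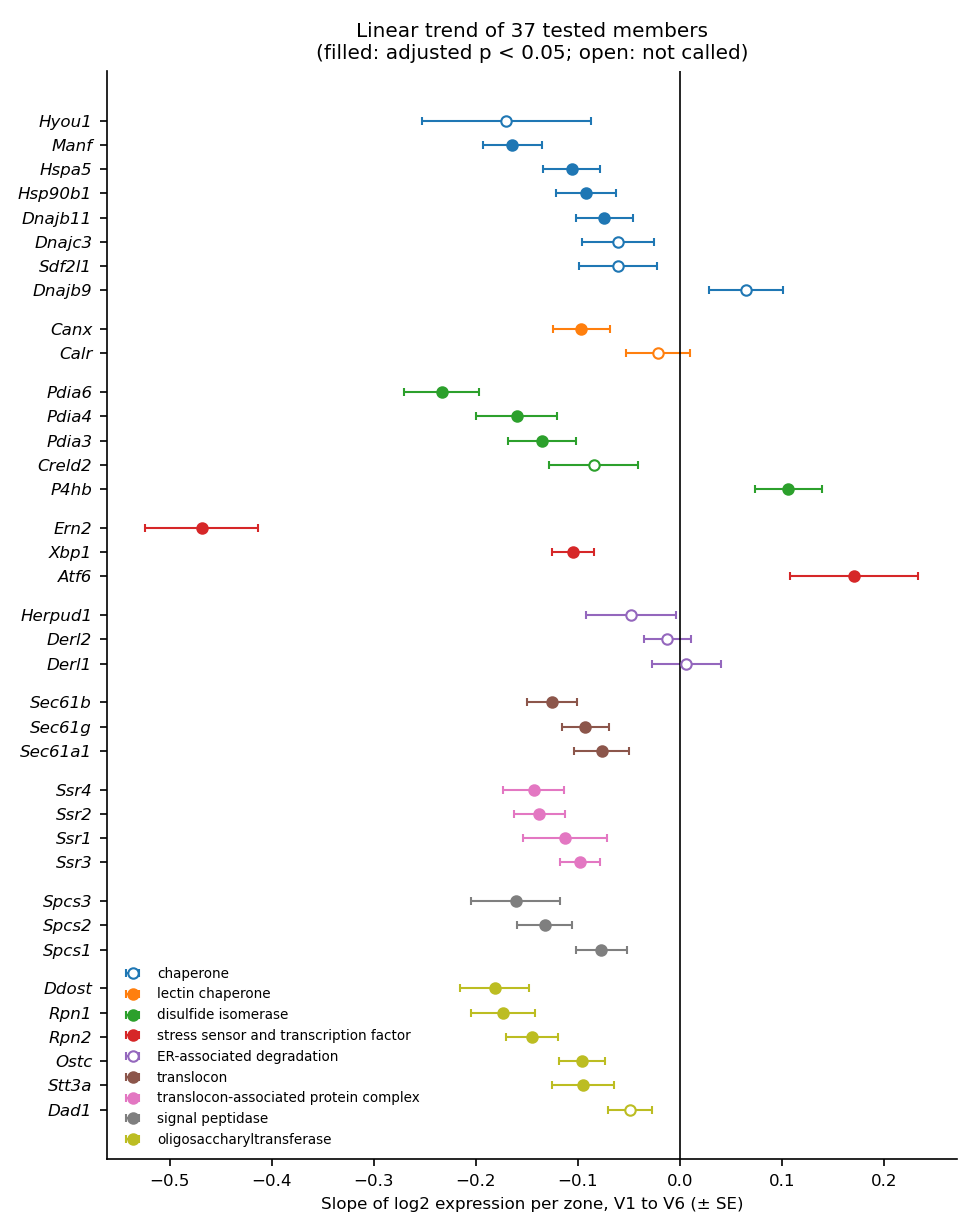
Slope of log2 expression per zone from V1 to V6 with its SE for the 37 tested members, grouped by role, with filled points for an adjusted p under 0.05. The points of the translocon, the translocon-associated complex, signal peptidase and oligosaccharyltransferase all lie left of 0, P4hb and Atf6 are the filled points right of 0, and Ern2 lies farthest left at -0.47.

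Calls were made mostly between V1 and V3, although the 2 steps were not tested against each other. In V3 against V1, 13 members were lower (35.1%, against 8.37% of all genes) and 1, P4hb, was higher (2.70%, against 11.5%). In V6 against V3, edgeR called 0 of 37 members in either direction (3.12% of all genes were called), with 3 members at an unadjusted p under 0.05, and DESeq2 also called 0. Over all genes edgeR called 5 of 9328 lower there and 286 higher. Lower calls were thus rare for any gene, and 0 among the members says little about them. By sign, 31 of the 37 members were lower in V6 than in V3. The median difference of the members was -0.17 for V6 minus V3 and -0.28 for V3 minus V1 (log2), beside -0.031 and -0.0079 over all genes. The block model called 18 lower (17.6% of all genes). The lower calls numbered 3 without mouse 1, 4 without mouse 3 and 5 without mouse 4, against 14 without mouse 2. Over all genes the lower calls went down as well, to 377, 495 and 272 without mice 1, 3 and 4, and the members' median difference there was -0.24, -0.30 and -0.34 (log2). The rise of P4hb in that comparison was not called without mouse 1, 2 or 4. With mouse as a block, V6 minus V3 had 1 call, the lower level of Canx (1.27% of all genes were called lower). Over V2 to V6 alone 6 members fell (2.84% of all genes) and 1 rose (9.61% of all genes). With mouse as a block 20 fell there (13.3% of all genes) and 2 rose (16.9% of all genes). Over V3 to V6 alone edgeR called 0 members, with 2 at an unadjusted p under 0.05, both lower, and it called hardly any gene lower (0.0231%, beside 2.56% higher). The middle zone V4 held the lowest zone mean for many members, although it was not tested against V5 or V6. Summed over all members, the level was nearly the same in V4 and V6 (6946 ± 435 and 6991 ± 415 CPM, SD, n = 4). V4 was the lowest zone in 17 of 37 members (45.9%, against 19.7% of all genes), and V1 the highest in 27 (73.0%, against 36.1%). Upward curvature was called for 3 members, Pdia6, Sec61g and Ern2 (2.86% of all genes), for 11 with mouse as a block (9.61% of all genes, beside 1 member, P4hb, and 12.3% of all genes with downward curvature), and for 0 without mouse 3 (3 at an unadjusted p under 0.05) or mouse 4 (7 at that level), while 1 was called without mouse 1 (Ern2) and 1 without mouse 2 (Pdia6). Downward curvature was called by edgeR for 0 members (4.55% of all genes) and by DESeq2 for 0, with 1 member at an unadjusted p under 0.05.

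**Figure D2:**
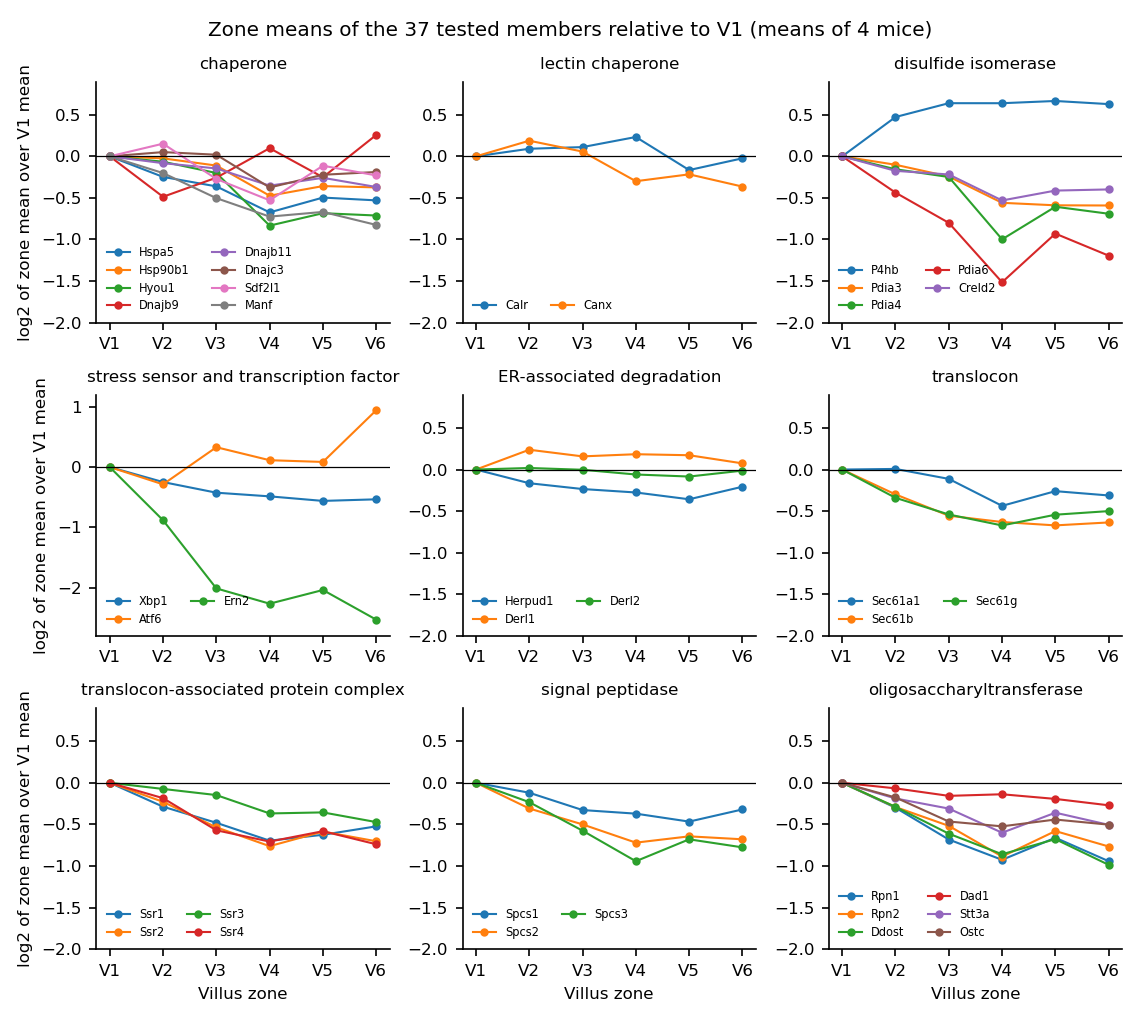
Zone means of 4 mice as the log2 ratio to the V1 mean for the 37 tested members, 1 panel per role, with zones V1 to V6 on the horizontal axis. All lines of the translocon, the translocon-associated complex, signal peptidase and oligosaccharyltransferase end below 0 in V6, P4hb lies above 0 from V2 on, and the panel of sensors has a wider vertical range because of Ern2.

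Among the chaperones of the ER lumen, which hold and fold new chains, 4 of 8 fell in the trend and the other 4 did not pass the test. Hspa5, the gene of the HSP70 chaperone BiP, lies on chromosome 2 (34771970 to 34777547, plus strand, GRCm38). It had 220, 327, 210 and 282 CPM in V6 of mice 1 to 4, against 366, 460, 322 and 353 CPM in V1. V6 was lower within each mouse, but mouse 2 in V6 stood above mouse 3 in V1, so the groups overlapped. The slope of Hspa5 was -0.11 ± 0.028 (adjusted p = 0.00376). Manf, a stress-induced ER protein that binds BiP, had 133, 133, 113 and 197 CPM in V6, against 216, 252, 273 and 279 CPM in V1. Every V6 library was below every V1 library, and the slope was -0.16 ± 0.029 (adjusted p = 9.2e-05). The gene body of Manf (chromosome 9, 106838312 to 106891979) overlaps Rbm15b and Dcaf1 in the annotation, 1 of them on the same strand, and reads that they share cannot be assigned from the table. Hsp90b1, the HSP90 of the ER (GRP94), fell with a slope of -0.092 ± 0.029, and Dnajb11, a J-domain partner of BiP, with -0.074 ± 0.028 (adjusted p = 0.0133 and 0.0347). Hyou1, the ER chaperone of the HSP110 class, had the steepest slope of the group at -0.17 ± 0.083 but did not pass (adjusted p = 0.0991), at 11.3 ± 6.22 CPM in V6 and 18.6 ± 7.41 in V1 (SD, n = 4). Dnajc3 (P58IPK) and Sdf2l1, both BiP partners, had slopes of -0.061 and -0.061 without passing. Dnajb9 (ERdj4), a J-domain protein that restrains IRE1, had a slope of 0.065 ± 0.036 without passing (adjusted p = 0.146). Each mouse had more of it in V6, at a mean of 22.5 ± 3.88 CPM in V6 and 18.8 ± 2.05 CPM in V1. With mouse as a block, Hyou1 and Dnajc3 also fell (adjusted p = 0.0016 and 0.0196).

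Of the lectin chaperones, which hold glycoproteins while they fold, calnexin fell and calreticulin was not called. Canx had 171, 286, 255 and 282 CPM in V6, 286, 308, 339 and 397 CPM in V3, and 312, 270, 379 and 317 CPM in V1. The V6 value was below the V3 value within each of the 4 mice, while V3 and V1 overlapped. Its slope was -0.097 ± 0.028 (adjusted p = 0.00711). V6 minus V3 was -0.42 ± 0.17 (log2; adjusted p = 0.239, or 0.0273 with mouse as a block). Calr had 186, 141, 230 and 197 CPM in V6 against 156, 168, 217 and 225 CPM in V1. These groups overlapped throughout, and the slope was -0.021 ± 0.031 (adjusted p = 0.600). A pseudogene, Calr-ps, is annotated, and the counting may have split reads between it and Calr.

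Disulfide isomerases make and reshuffle the disulfide bonds of new proteins. Pdia6 had the steepest slope of any member apart from Ern2. It had 59.1, 84.1, 79.3 and 87.9 CPM in V6, against 159, 206, 192 and 153 CPM in V1. All V6 libraries were below all V1 libraries, at 0.437 times the V1 mean. The slope was -0.23 ± 0.036 (adjusted p = 1.8e-05), V3 minus V1 was -0.80 ± 0.21 (log2; adjusted p = 0.0101) and V6 minus V3 was -0.40 ± 0.22 (adjusted p = 0.486). Pdia6 lies on chromosome 12 (17266545 to 17284770) and overlaps Atp6v1c2 on the other strand. Pdia3 (ERp57), the isomerase that works with the lectin chaperones, had 167, 219, 182 and 149 CPM in V6 against 298, 316, 275 and 191 CPM in V1. V6 was lower within each mouse, although mouse 2 in V6 stood above mouse 4 in V1. Its slope was -0.14 ± 0.033 (adjusted p = 0.00208). Pdia4 (ERp72) fell with -0.16 ± 0.040 (adjusted p = 0.00237). Creld2, a stress-induced isomerase-like protein, had -0.085 ± 0.043 and did not pass (adjusted p = 0.113, or 0.0147 with mouse as a block).

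P4hb went the other way. It encodes the archetypal protein disulfide isomerase, which is also the smaller subunit of the microsomal triglyceride transfer protein and of collagen prolyl 4-hydroxylase. The gene lies on chromosome 11 (120560298 to 120573253, minus strand). It had 1828, 1619, 2095 and 2015 CPM in V6, 1574, 1686, 2093 and 2263 CPM in V3, and 896, 957, 1502 and 1534 CPM in V1. All V6 libraries were above all V1 libraries, while V6 and V3 overlapped. P4hb rose with a slope of 0.11 ± 0.033 (adjusted p = 0.0107). V3 minus V1 was 0.64 ± 0.19 (log2; adjusted p = 0.0219) and V6 minus V3 was -0.011 ± 0.19 (adjusted p = 0.999). P4hb was the most abundant member by UMI count in every zone. It made up most of the summed level of the 5 isomerases, which was 2249 ± 194 CPM in V6 and 1824 ± 298 in V1 (SD, n = 4). The 6 oligosaccharyltransferase genes, by comparison, summed to 1251 ± 94.1 CPM in V6 and 1933 ± 160 in V1. The slope of P4hb was 0.087 without mouse 1 (adjusted p = 0.0816) and 0.043 with scaling by total UMIs (adjusted p = 0.239).

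**Figure D3:**
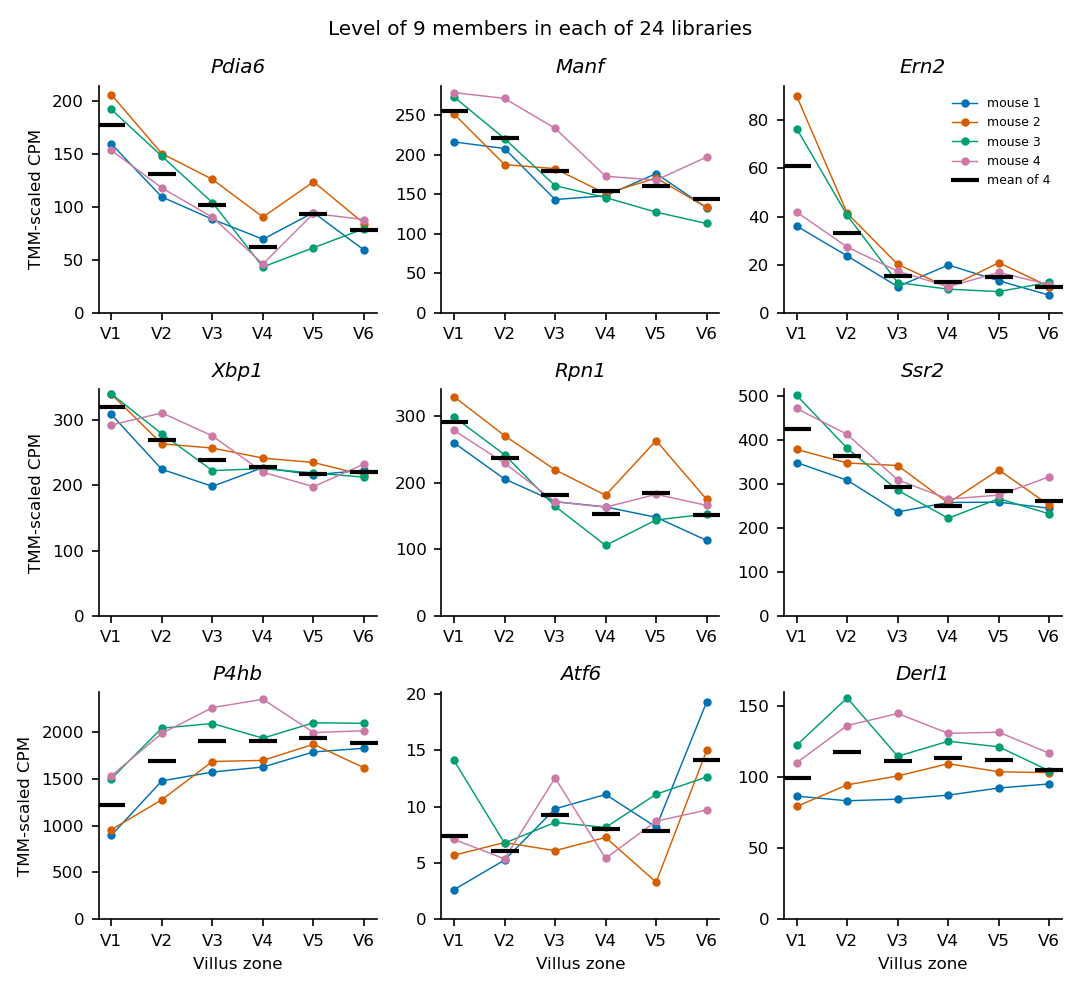
Level in TMM-scaled CPM of 9 members in each of the 24 libraries, with 1 coloured line per mouse over zones V1 to V6, a black bar for the mean of 4 mice, and a vertical axis from 0. Pdia6, Manf, Ern2, Xbp1, Rpn1 and Ssr2 are highest in V1, P4hb is lowest in V1, Atf6 lies below 20 CPM in every library, and the lines of Derl1 cross.

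The promoters of these genes are shown because the unfolded protein response acts on many of them through the ER stress response element. RefSeq windows on GRCm38.p6, from 250 bases before to 50 after the gene start, were at hand for 30 of the 39 members. The element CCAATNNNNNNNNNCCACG occurred on either strand in 8 of the 30 members (26.7%, against 0.137% of 27025 genes with a window): Calr, Canx, Creld2, Derl3, Dnajc3, Hsp90b1, Hspa5 and Pdia6. The related ERSE-II, ATTGGNCCACG, occurred in Herpud1 and Dnajb11 (6.67%, against 0.0444%). The UPRE core TGACGTG occurred in Hspa5 (3.33%, against 2.22%), and the 5 letters CCACG, which both elements contain, in 24 of 30 (80%, against 35.5%). Of the 7 tested members with the first element, 4 fell, with slopes from -0.23 to -0.021. Of the 21 tested members with a window but no such match, 15 fell and 1 rose, with slopes from -0.18 to 0.11. Over all genes tested, 22.8% fell and 22.1% rose. The median slope was -0.092 with the match and -0.098 without it, and these groups were not tested against each other. A match describes letters in a window and shows no binding.

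The 250 bases before the start are given for 4 members, with both ends of each match to the stress response element or ERSE-II in capitals. The UPRE core of Hspa5, 157 bases before the start, is in lower case. Hspa5 (BiP) carries 1 match to the stress response element on chr2:34771840-34772089 (plus strand), Hsp90b1 carries 2 on chr10:86705445-86705694 (minus strand), Pdia6, the steepest isomerase, 1 on chr12:17266339-17266588 (plus strand), and Herpud1, which was not called in the trend, 1 ERSE-II on chr8:94386179-94386428 (plus strand).
Hspa5: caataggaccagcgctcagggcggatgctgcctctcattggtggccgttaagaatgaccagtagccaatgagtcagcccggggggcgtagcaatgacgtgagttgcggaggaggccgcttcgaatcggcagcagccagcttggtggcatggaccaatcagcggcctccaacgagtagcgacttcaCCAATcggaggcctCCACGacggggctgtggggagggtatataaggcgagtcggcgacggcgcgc
Hsp90b1: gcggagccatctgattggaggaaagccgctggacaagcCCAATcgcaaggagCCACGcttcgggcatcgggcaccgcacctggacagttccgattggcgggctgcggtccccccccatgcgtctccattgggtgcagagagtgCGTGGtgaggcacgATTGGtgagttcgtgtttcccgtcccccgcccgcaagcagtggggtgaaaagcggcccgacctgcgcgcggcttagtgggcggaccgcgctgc
Pdia6: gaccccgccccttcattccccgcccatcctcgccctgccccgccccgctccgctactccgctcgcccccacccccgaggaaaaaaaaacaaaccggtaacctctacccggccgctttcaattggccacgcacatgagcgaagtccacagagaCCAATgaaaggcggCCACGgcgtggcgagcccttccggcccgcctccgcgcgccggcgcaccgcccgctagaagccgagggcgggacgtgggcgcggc
Herpud1: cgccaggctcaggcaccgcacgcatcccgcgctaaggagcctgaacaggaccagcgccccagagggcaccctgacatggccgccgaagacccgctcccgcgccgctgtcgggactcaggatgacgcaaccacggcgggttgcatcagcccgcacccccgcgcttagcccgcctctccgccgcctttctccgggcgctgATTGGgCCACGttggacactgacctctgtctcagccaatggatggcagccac
In Hspa5 the element starts 65 bases before the gene start and in Pdia6 98 bases before it. In Hsp90b1 one element starts 212 bases before the gene start on the given strand, and the other, on the opposite strand, begins 107 bases before it. CGTGG and ATTGG are CCACG and CCAAT read on the opposite strand. The RefSeq starts used here need not equal the GENCODE starts of the gene coordinates above.

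Of the sensors and the transcription factor of the response, Ern2 and Xbp1 fell and Atf6 rose. Ern2 encodes IRE1 beta, the isoform of the IRE1 sensor that is restricted to mucosal epithelia and known from goblet cells, and it had the steepest slope of all members. It lies on chromosome 7 (122169893 to 122186207, minus strand). Ern2 had 7.24, 10.8, 12.6 and 11.6 CPM in V6, 10.8, 20.1, 12.5 and 17.2 CPM in V3, and 36.1, 90.2, 76.6 and 41.9 CPM in V1. Every V6 and V3 library was below every V1 library. The slope was -0.47 ± 0.055 (adjusted p = 4.1e-07), V3 minus V1 was -2.01 ± 0.31 (log2, adjusted p = 7.0e-05) and V6 minus V3 was -0.52 ± 0.35 (adjusted p = 0.612). The goblet cell mucin gene Muc2 had a slope of -0.57 and the goblet cell isomerase gene Agr2 one of -0.42. Ern1, the isoform found in most tissues, was too low for the filter, with 171 UMIs in the 24 libraries together, and had 5.43, 4.17, 4.91 and 6.46 CPM in V6 against 3.66, 5.10, 4.90 and 2.95 CPM in V1.

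Xbp1, whose messenger RNA IRE1 splices to make an active transcription factor, had 223, 216, 213 and 233 CPM in V6, against 309, 340, 340 and 292 CPM in V1. All V6 libraries were below all V1 libraries. The slope was -0.10 ± 0.021 (adjusted p = 2.9e-04), and V3 minus V1 was -0.43 ± 0.12 (log2; adjusted p = 0.0163). Counts of 3-prime ends do not tell spliced from unspliced Xbp1. Atf6, the sensor that is cut in the Golgi to release a transcription factor, rose at a low level. It had 19.3, 15, 12.6 and 9.69 CPM in V6, against 2.61, 5.67, 14.1 and 7.07 CPM in V1. The groups overlapped, and mouse 3 had the lower value in V6. The slope of Atf6 was 0.17 ± 0.063 (adjusted p = 0.0310), from 325 UMIs in all, and it was not called without mouse 1, 2 or 4 (slopes 0.087, 0.17 and 0.19, adjusted p = 0.343, 0.0630 and 0.0637) or with scaling by total UMIs (0.10, adjusted p = 0.156). Leukocyte markers rose beside it (4 of 4 tested of a list of 12; all 12 summed to 144 ± 23.1 CPM in V6 and 18.5 ± 13.3 in V1, n = 4), and their part in the difference was not tested. Among the 4, Gzmb had 9.85 CPM in V6 and 0.749 in V1, and Nkg7 7.73 and 0.760. Such genes pass the filter through the zones where they are high, so the count of 4 is no separate support for a rise.

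None of the 3 tested members of ER-associated degradation, which carries misfolded proteins back to the cytosol, was called, and none had an unadjusted p under 0.05. Herpud1, a scaffold of the degradation complex, had 109, 139, 64.5 and 115 CPM in V6 against 126, 160, 102 and 106 CPM in V1. The groups overlapped, and the slope was -0.048 ± 0.044 (adjusted p = 0.385, or 0.0443 with mouse as a block). Derl2, a derlin of the export channel, had 71.8, 107, 82.8 and 85.3 CPM in V6 against 86.2, 80.5, 101 and 82.5 CPM in V1, again overlapping, with a slope of -0.012 ± 0.023 (adjusted p = 0.687). Its paralog Derl1 had a slope of 0.0062 ± 0.034, at 105 ± 8.94 CPM in V6 and 99.7 ± 20.1 in V1 (SD, n = 4). Derl3, known from heavily secreting cells such as plasma cells, had 5 UMIs in all libraries together and was not tested. A p that misses the threshold does not show that these levels were equal.

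The 3 translocon genes fell. Sec61b, the beta subunit of the channel, had 179, 230, 154 and 203 CPM in V6 against 285, 294, 305 and 306 CPM in V1. All V6 libraries were below all V1 libraries, and V1 varied little between mice (297 ± 10.1 CPM). The slope was -0.13 ± 0.025 (adjusted p = 2.8e-04). Sec61g, the gamma subunit, had 160, 151, 137 and 136 CPM in V6, 141, 135, 171 and 121 CPM in V3, and 236, 185, 224 and 181 CPM in V1. V6 lay wholly below V1 and overlapped V3. Its slope was -0.093 ± 0.023 (adjusted p = 0.00206), and its curvature was 0.058 (log2 per squared zone; adjusted p = 0.0220). The pore subunit gene Sec61a1 fell with -0.077 ± 0.027 (adjusted p = 0.0237), and its V6 minus V1 of -0.31 ± 0.16 did not pass (adjusted p = 0.125, or 0.0212 with mouse as a block). The difference between the subunits was not tested.

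The 4 genes of the translocon-associated protein complex, which helps signal sequences into the channel, all fell. Ssr2 (TRAP beta) had 245, 252, 232 and 317 CPM in V6 against 349, 379, 502 and 472 CPM in V1, without overlap, and a slope of -0.14 ± 0.025 (adjusted p = 1.3e-04). Ssr3 (TRAP gamma) had 73.6, 82.5, 72.3 and 76.3 CPM in V6, 85.6, 106, 92.2 and 98.0 CPM in V3, and 107, 104, 111 and 101 CPM in V1. V6 was wholly below V3 as well as V1. Its slope was -0.098 ± 0.019 (adjusted p = 3.2e-04), V6 minus V3 was -0.33 ± 0.12 (log2, adjusted p = 0.164) and V3 minus V1 was -0.15 ± 0.11 (adjusted p = 0.369). Ssr4 and Ssr1 had slopes of -0.14 ± 0.030 and -0.11 ± 0.042 (adjusted p = 5.4e-04 and 0.0304).

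The 3 signal peptidase genes fell as well. Spcs2, an accessory subunit, had 211, 272, 184 and 202 CPM in V6 against 361, 398, 323 and 311 CPM in V1, without overlap, and a slope of -0.13 ± 0.027 (adjusted p = 3.9e-04). A pseudogene, Spcs2-ps, is annotated, and the counting may have split reads between the copies. Spcs3 had 35.6, 50, 37.2 and 33.6 CPM in V6 against 75.8, 78.8, 63.8 and 49.5 CPM in V1, with mouse 2 in V6 just above mouse 4 in V1. Its slope was -0.16 ± 0.043 (adjusted p = 0.00447), and that of Spcs1 was -0.077 ± 0.025 (adjusted p = 0.0161).

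Oligosaccharyltransferase, which transfers the glycan to asparagine, had 5 of 6 genes lower toward the tip, and all 6 with mouse as a block. Rpn2 (ribophorin II) had 200, 224, 213 and 260 CPM in V6 against 337, 385, 419 and 386 CPM in V1, without overlap, and a slope of -0.14 ± 0.025 (adjusted p = 8.4e-05). Rpn1 (ribophorin I) had 113, 175, 153 and 166 CPM in V6 against 260, 330, 299 and 279 CPM in V1, also without overlap, at 0.520 times the V1 mean. The slope of Rpn1 was -0.17 ± 0.032 (adjusted p = 1.2e-04), and V3 minus V1 was -0.68 ± 0.19 (log2; adjusted p = 0.0119). Ddost (OST48) had the steepest slope of the complex, -0.18 ± 0.034 (adjusted p = 1.7e-04), at 187 ± 36.3 CPM in V6 and 371 ± 31.4 in V1 (SD, n = 4). The catalytic subunit gene Stt3a and the adaptor gene Ostc fell with -0.095 ± 0.030 and -0.096 ± 0.023 (adjusted p = 0.0131 and 0.00148). Dad1, a small subunit first described in cell death, had -0.049 ± 0.022 and did not pass (adjusted p = 0.0701, or 0.0284 with mouse as a block).

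**Figure D4:**
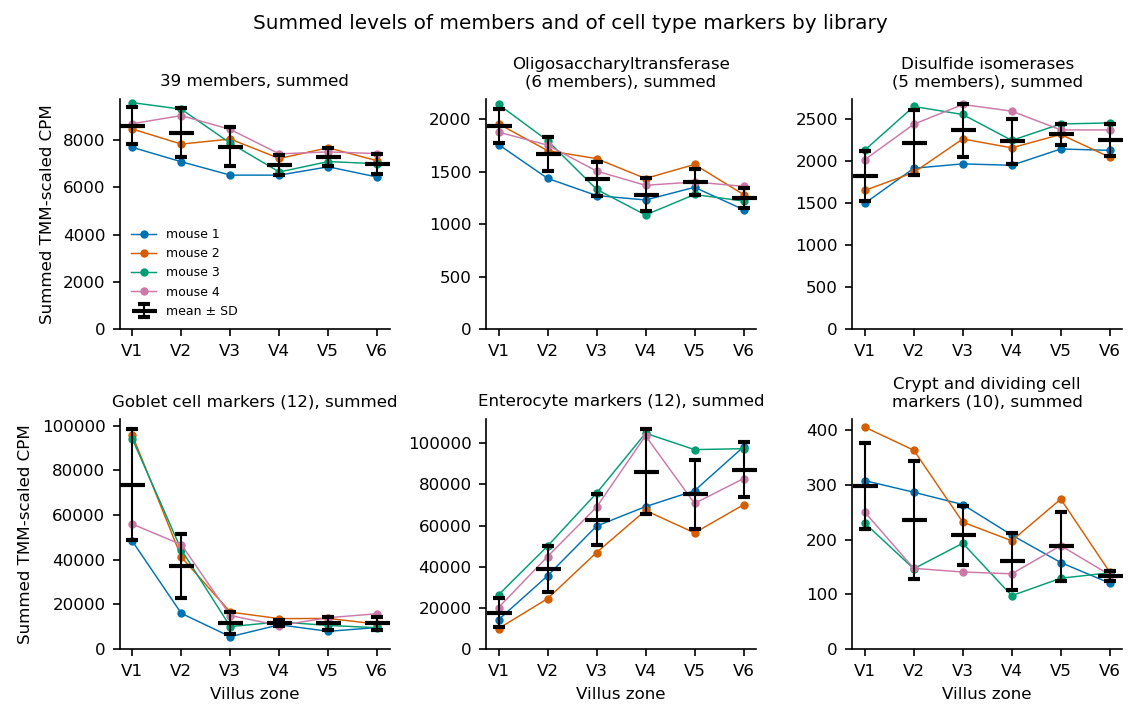
Summed level in TMM-scaled CPM of all 39 members, of 2 role groups and of 3 lists of cell type markers in each of the 24 libraries, with 1 coloured line per mouse over zones V1 to V6 and black bars for the mean and SD of 4 mice. The goblet cell markers drop to 11807 CPM in V3 and stay there, the enterocyte markers climb up to V4, and the oligosaccharyltransferase genes decline over V1 to V4, while the isomerases, of which P4hb makes up most, do not.

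Lists of the other genes of the pathway were counted in the same trend test, without mouse as a block. With the block some calls in these lists change. Copa, of ER to Golgi transport, then rose (edgeR adjusted p = 0.119, or 2.3e-05 with the block). Asns, of the integrated stress response, then fell (0.0965, or 7.7e-05). Of 16 tested genes of oxidative folding outside the members, 11 fell and the other 5 were not called. Txndc5, an isomerase of secretory cells, had the smallest adjusted p, at 91.9 ± 11.1 CPM in V6 and 325 ± 70.9 in V1 (slope -0.34 ± 0.037, adjusted p = 1.1e-07). The genes named next were chosen by the smallest adjusted p of their list in that direction, which need not be the steepest slope. Of 12 genes of glycan transfer and trimming, 5 fell, among them the oligosaccharyltransferase subunit gene Tmem258 (slope -0.16 ± 0.022), and 1 rose, the glucosidase II subunit gene Prkcsh (0.13 ± 0.036). Of 14 genes of signal recognition and translocation, 5 fell, among them the signal peptidase gene Sec11c (-0.21 ± 0.027), and the other 9 were not called. Of 18 further genes of ER-associated degradation, 3 fell, among them Vimp (-0.099 ± 0.025), and 2 rose, among them Os9 (0.095 ± 0.022). These shares compare with 22.8% of all genes falling and 22.1% rising.

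Of 22 genes of transport from the ER to the Golgi, 9 rose and 2 fell. For this list and those below, 22.8% of all genes fell and 22.1% rose. The lists below are short, so their counts say little about a list as a whole. Sec24d, a cargo adaptor of the COPII coat, had 77.5 ± 23.7 CPM in V6 and 35.0 ± 9.54 in V1 (SD, n = 4; slope 0.22 ± 0.039, adjusted p = 7.4e-05), and the cargo receptor gene Tmed9 fell with -0.22 ± 0.048. Of 12 tested genes of PERK and the integrated stress response, 4 rose and 2 fell. Ddit3 (CHOP), a transcription factor of that branch, had 29.0 ± 7.10 CPM in V6 and 12.03 ± 4.15 in V1 (slope 0.25 ± 0.047, adjusted p = 1.8e-04), while Nupr1 fell (-0.23 ± 0.058). Of 9 tested genes of other stress transducers, 3 rose and 2 fell. Creb3l2, a transcription factor anchored in the ER membrane, rose with a slope of 0.46 ± 0.061 (adjusted p = 2.6e-06), and its relative Creb3l4 fell with -0.40 ± 0.060 (adjusted p = 1.2e-05). Creb3l4 had 6.81 ± 3.37 CPM in V6 and 29.3 ± 7.29 in V1, and Creb3l2 had 79.2 ± 23.3 CPM in V6 and 16.0 ± 8.47 in V1 (SD, n = 4).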

How the data were processed

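Polyadenylated RNA was read with mcSCRB-seq, per the labels' protocols. The authors deposited a single table with UMI counts per gene and library, not normalized. Per the submitters' processing notes, bcl2fastq 2.15.0.4 and build GRCm38 were used. The table's name points to zUMIs. The sources used here name no aligner, annotation release or read filter. The deposited sample sheet gives an index for each library, read here as a pool label, which its header does not state. Of 17811 identifiers, 131 had no count and 17741 matched GENCODE M21, used for coordinates.

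The counts were fitted in edgeR 4.0.16 (R 4.3.3). With filterByExpr by zone, a minimum count of 10 and a minimum total of 15, 9328 genes stayed, scaling was TMM, and the robust quasi-likelihood model held a separate mean for each zone (18 residual degrees of freedom). A gene was called at an adjusted p (Benjamini-Hochberg, all genes of a contrast) under 0.05. The slope takes zones as equally spaced. The test was also run on simulated counts with the same dispersion for all genes and no mouse effect. That check cannot speak to the correlation between libraries of the same mouse, described below. Members and lists were chosen with earlier results of these data known. Library values are given for the 2 members of each role with the smallest adjusted p, for the sensors, Xbp1 and Hspa5 and for members called against the majority. Hyou1, Dnajb9, Derl1 and Ddost were also described after their values were seen. Features of the proteins, which had been planned, were not analysed here.

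Every mouse gave all 6 zones. Deviations from the zone means correlated between libraries of 1 mouse with a mean r of 0.422 (lowest 0.184, above 0.1 in 60 of 60 pairs). The pools followed the mice, except that V1 of mouse 2 carried the index of mouse 1. Mouse and pool therefore cannot be told apart in this correlation, and blocks by mouse and by pool are nearly the same. Results with mouse as a block, which leaves 15 residual degrees of freedom, are therefore added for the members. They are given as counts and for single members whose trend call changes. Counts of the marker lists and of the other pathway lists are without the block. No library was a copy of another. Over 36 pairs within a zone, chi-square per degree of freedom was 3.52 to 31.4. Of the members, 8 overlap another coding gene, 1 of them on the same strand, and the sources do not say whether counting used strand. Alternatives used DESeq2 1.42.0, other scalings and filters, the pool as a block, fewer zones, a goblet score and each mouse left out.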

Additional observations from a re-analysis of the deposited data

Results flagged for a closer look

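In 15 of the 234 groups of 4 mice formed by a member and a zone (6.41%), 1 mouse stood apart from the other 3 by more than Dixon's critical value. Chance alone flags about 1 in 20 such groups. Mouse 1 was low for Hsp90b1 in V4 (189 CPM, others 225 to 232), Dnajb9 in V4 (15.2 CPM, others 21.6 to 21.99), Derl2 in V3 (75.3 CPM, others 90.1 to 93.03), Sec61a1 in V3 (233 CPM, others 335 to 350), Ddost in V2 (238 CPM, others 324 to 328). Mouse 1 was high for Ern2 in V4 (19.8 CPM, others 9.77 to 10.8). Mouse 2 was low for Spcs1 in V5 (104 CPM, others 114 to 115), Dad1 in V6 (366 CPM, others 419 to 426). Mouse 2 was high for Spcs3 in V2 (82.2 CPM, others 46.5 to 51.6), Rpn1 in V3 (219 CPM, others 165 to 172). Mouse 3 was low for Manf in V5 (127 CPM, others 168 to 176). Of the members below the filter, Ern1 was low in V4 of mouse 2 (0.806 CPM, others 4.89 to 5.40). Derl3 was seen in V1 of mouse 1 (0.522 CPM), V3 of mouse 3 (0.781 CPM) and V4 of mouse 1 (0.583 CPM) while the other 3 mice of those zones had no UMI; each of these values is 1 UMI.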

How the results depend on the processing

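The 25 falls and 2 rises of the trend were called alike with DESeq2 size factors. DESeq2 called 26 falls, no filter left 23 and a mean of at least 50 CPM 25 (of 31 members), where 1 member rose. Falls over all genes numbered 2137 of 9328 with DESeq2 and 2048 of 17680 without a filter. With at least 50 CPM, 844 of 2702 genes fell and 848 rose. Leaving out each mouse gave 18 to 25 falls and 0 to 2 rises, 14 to 22 lower and 0 to 2 higher members in V6 against V1, 3 to 14 lower and 0 to 1 higher in V3 against V1, and upward curvature in 0 to 1. Over all genes (9263 to 9445 tested) 1294 to 1776 then fell and 1509 to 1879 rose. In V6 against V1, 982 to 1464 genes were lower and 1257 to 1634 higher. In V3 against V1, 272 to 683 were lower and 532 to 953 higher, and 124 to 196 curved upward. With mouse as a block (replicate block), 30 members fell and 2 rose, 11 curved upward and 1, P4hb, downward, and 1 was lower in V6 than in V3. The index pool as a block gave 20 lower members in V3 against V1, 14 and 1 by curvature, and 1 lower in V6 against V3. Of all 9328 genes the pool block called 1739 lower in V3 against V1 and 98 lower in V6 against V3. By curvature it called 968 genes upward and 1266 downward. Without a filter, 6 members were lower in V3 than in V1, 1 was higher in V6 than in V1 and 1 curved upward, and with at least 50 CPM these counts were 15, 1 and 7. The same counts over all genes were 540, 1893 and 240 without a filter and 542, 802 and 197 with at least 50 CPM. Total UMI scaling gave all genes a median of -0.34 (log2) in V6 against V1, left 0 members higher in the trend, in V6 against V1 and in V3 against V1, called 29 lower in V6 against V1, and put the summed level at 6381 CPM in V6 and 9849 in V1. All genes then split into 3089 lower and 1157 higher in V6 against V1 (1736 and 1884 under TMM) and 1315 and 762 in V3 against V1 (781 and 1069). There Dnajb9 had a slope of -0.0013 and Derl1 -0.058, neither called.

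Over V2 to V6 alone 6 members fell and 1 rose (255 and 862 of all genes). Over V3 to V6 alone 0 fell and 0 rose (2 and 221 of all genes), or 1 and 0 with the block, and slopes turned for P4hb (-0.0017), Sdf2l1 (0.053, or 0.056 with the block), Sec61g (0.023, or 0.024) and Derl1 (-0.025, or -0.021), none called. Derl1 also turned with at least 50 CPM (-0.015), without mouse 1 or 2 (over the 4 mice left out in turn -0.013 to 0.034, and -0.0025 without mouse 1) and over V2 to V6 (-0.028, or -0.022 with the block), and Derl2 without mouse 3 (-0.031 to 0.0025 over the mice). With the goblet score and the block, 0 fell and 0 rose (52 and 217 of all genes). The slopes of 16 members turned there without a call, at -0.025 for Dnajb9, 0.078 for Dnajb11, 0.21 for Sdf2l1, 0.012 for Calr, 0.17 for Creld2, 0.046 for Xbp1, 0.00063 for Ern2, 0.082 for Herpud1, 0.0064 for Derl2, 0.074 for Sec61a1, 0.0095 for Ssr2, 0.010 for Ssr4, 0.057 for Spcs3, 0.053 for Ddost, 0.021 for Dad1 and 0.022 for Stt3a. The cause was not tested, beyond the overlap of that score with zone and mouse. Low counts limit Atf6, Ern1, Derl3, Hyou1 and Dnajb9. Whether mice differ beyond these 4 is not shown.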

Other observations

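Mttp, the gene of the large subunit of the microsomal triglyceride transfer protein, whose smaller subunit is the product of P4hb, was looked at after the values of P4hb were seen. It had 827 ± 163 CPM in V6, 786 ± 182 in V3 and 340 ± 137 in V1 (SD, n = 4), with a slope of 0.22 ± 0.045 (edgeR, adjusted p = 5.1e-04). P4hb had 1889 ± 212 CPM in V6, 1904 ± 327 in V3 and 1222 ± 343 in V1. Ppp1r15a (GADD34), which ends the PERK signal, was the gene of the PERK list called in V6 against V3. The difference was 2.74 (log2, edgeR, adjusted p = 0.00524), at 8.97 ± 4.78 CPM in V6 and 1.28 ± 0.368 in V3. Its means in V1, V2 and V4 were also low, at 1.98, 1.78 and 2.83 CPM, beside 5.91 ± 4.25 in V5. The V3 level rests on few UMIs. Libraries of the upper zones carried the gene through the filter, so the call is no separate support for its rise.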
